A study of Mus musculus with 15 samples.

Results

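Imprinted genes were followed across mouse tumors driven by Myc or MYCN, with and without caspase-2. The genes were 36 named mouse genes of 15 imprinted domains, listed by name, among 23329 genes in the count tables, and 32 of them passed the low-count filter that left 14880 genes for testing. RNA from 15 tumors, each from a different mouse, had been sequenced. The 4 EμMyc tumors were B cell lymphomas of cervical lymph nodes from C57BL/6 mice in which the Eμ immunoglobulin enhancer drives Myc, with onset at 13 to 19 weeks. The 3 EμMyc/Casp2-/- tumors were lymphomas of the same site and strain in mice that also lack Casp2, with onset at 8 to 12 weeks. The 4 Th-MYCN tumors were neuroblastomas from Sv129/C57BL6 mice in which the tyrosine hydroxylase promoter drives human MYCN in sympathetic cells, with onset at 10 to 21 weeks. The 4 Th-MYCN/Casp2-/- tumors were neuroblastomas of the same background lacking Casp2, with onset at 15 to 24 weeks. The neuroblastomas were paraspinal thoracic tumors picked for little or no blood vascularization. All 15 tumors carry a Myc family transgene, so there is no tissue free of one. Tumor type goes with strain and site, which cannot be told apart from it.

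An imprinted gene is expressed mainly from the copy inherited from the mother or from the father, according to methylation marks set in the germ line. The genes lie in clusters under shared control regions, many act in fetal growth, and many are switched down after birth except in brain, endocrine and neural crest tissue. The Igf2 and H19 domain pairs a paternally expressed growth factor with a maternally expressed noncoding RNA. The Dlk1-Dio3 domain pairs the paternally expressed Dlk1 and Rtl1 with the maternally expressed noncoding RNAs Meg3, Rian and Mirg, which host snoRNAs and miRNAs. By textbook assignment 19 of the 36 genes are expressed from the paternal copy, 15 from the maternal copy and 2 from either according to tissue. Counts do not show which parental copy was read, so loss of imprinting was not measured here.

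Rtl1 shares its DNA with miRNA genes read from the opposite strand. In the GRCm38 annotation, 6 miRNA hairpins lie opposite to Rtl1 within its exons on chromosome 12, and the miRNAs cut from them are complementary to Rtl1 RNA. They are shown because Rtl1 carries the most stable genotype difference below and because reads could not be given to 1 strand. Mature sequences are from RefSeq (GRCm38.p6), 5′ to 3′, with the seed, bases 2 to 8, in capitals. The 6 seeds all differ, and levels of these miRNAs were not measured.

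miR-431-5p: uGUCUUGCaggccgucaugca
miR-433-3p: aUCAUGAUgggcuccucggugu
miR-127-3p: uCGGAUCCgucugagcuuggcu
miR-434-3p: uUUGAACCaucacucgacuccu
miR-432: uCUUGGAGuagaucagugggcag
miR-136-5p: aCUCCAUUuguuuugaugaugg

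H19 holds 1 hairpin, Mir675, within an exon on its own strand, and its mature products are shown because H19 was the member called in the lymphomas. In all, 29 hairpins lie inside 8 of the 36 genes.

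miR-675-5p: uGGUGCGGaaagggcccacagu
miR-675-3p: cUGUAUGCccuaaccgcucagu

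The second strand column that the study used held 4940464 to 17638029 gene reads per tumor (median 12797572), so that 3 reads correspond to 0.170 to 0.607 CPM, the read count scaled to the size of the library by trimmed mean of M values (TMM). A gene was called where the edgeR likelihood ratio test gave a false discovery rate (FDR) under 0.05 and the fold change was over 2, and the FDR of the stricter quasi-likelihood test is given beside each call. Casp2 reads were reduced and not absent in tumors labelled Casp2-/-: they stood at 51.9 to 76.1 CPM in EμMyc/Casp2-/- against 125.3 to 202.8 CPM in EμMyc lymphomas, and 39.6 to 80.2 against 76.0 to 125.5 CPM in the neuroblastomas, where the groups overlapped and Casp2 was not called (log2 fold change -0.79 ± 0.25, FDR 0.101). Tissue labels matched their defining markers: 7 B cell markers summed to 2079 to 5093 CPM in lymphomas and 4.61 to 15.0 CPM in neuroblastomas, and 10 neuroblast markers to 3483 to 6147 CPM in neuroblastomas and 4.02 to 30.7 CPM in lymphomas. Several tumors stood apart. EμMyc/Casp2-/- tumor EuMycC2ko215 had a summed level of 7 T cell markers of 1475 CPM against 8.40 to 116.7 CPM in the other lymphomas. Th-MYCN tumor MYCN175 and Th-MYCN/Casp2-/- tumor MYCNC2ko118 had summed skeletal muscle markers of 231.4 and 328.4 CPM against 7.13 to 11.9 CPM in the other neuroblastomas.

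The main difference between tumors was between tissues. Of the 32 genes tested, 24 were lower and 0 were higher in EμMyc lymphomas than in Th-MYCN neuroblastomas, where 28.5% of all genes tested were called lower and 18.9% higher. The quasi-likelihood test called 22 lower, without H19 and Cdkn1c, and 0 higher, where 27.8% and 18.3% of all genes were called. The median log2 fold change was -5.03 over the 32 genes and -0.04 over all genes. These counts are descriptions, since 11 of the 32 genes had over 1 CPM in under 3 lymphomas and passed the filter only with the neuroblastomas. All 11 were called lower, as were 13 of the other 21. Values of 22 genes were lower in every EμMyc tumor than in any Th-MYCN tumor, as were those of 32.9% of all genes, and 0 genes were higher throughout, as were 26.4% of all genes. Unadjusted p was under 0.05 for 26 of the 32 genes and for 65.1% of all genes. In bulk tumors, fewer cells of a type and less RNA per cell cannot be told apart.

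**Figure D1:**
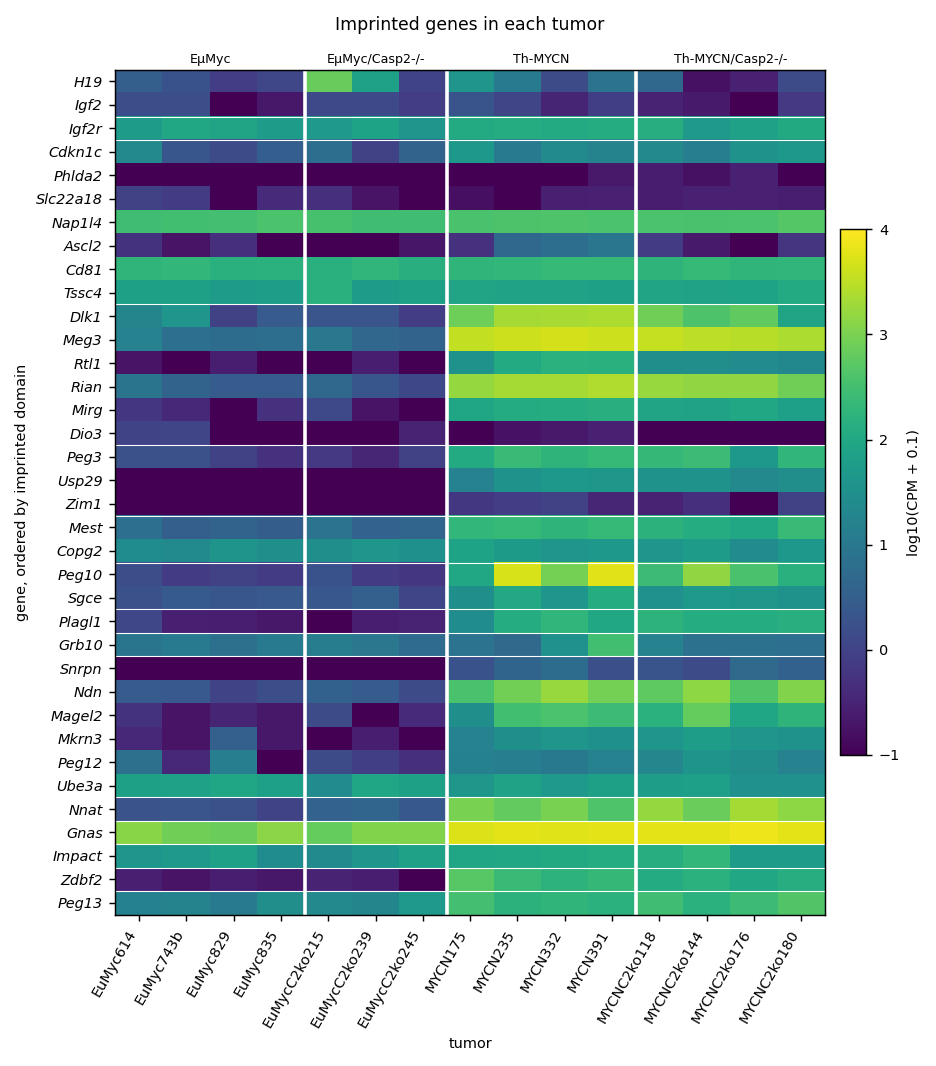
Level of the 36 imprinted genes (rows, grouped by domain) in the 15 tumors (columns), as log10 of CPM + 0.1. Most of the genes with high levels in the 8 neuroblastomas are near the bottom of the scale in the 7 lymphomas, and H19 is high in 2 EμMyc/Casp2-/- lymphomas.

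The 5 falls that were largest in the fitted model were those of Usp29, Peg10, Zdbf2, Rtl1 and Magel2. All 5 are among the 11 genes that passed the filter only with the neuroblastomas. They were tested because they were high there, so their folds and FDRs are descriptions. Usp29, a deubiquitinase gene of the Peg3 domain, had 0 reads in all 7 lymphomas and 16.6, 36.5, 46.4 and 43.2 CPM in the Th-MYCN tumors MYCN175, MYCN235, MYCN332 and MYCN391. Against the limit that 3 reads over the 4 EμMyc tumors allow, it was at least 539.8-fold lower there. Peg10, a gene derived from a retrotransposon, read 0.64 to 1.49 CPM in EμMyc tumors and 101.2, 4992, 918.0 and 5929 CPM in the Th-MYCN tumors, a log2 fold change of -11.65 ± 0.86 (SE; FDR 5.56e-18, quasi-likelihood FDR 3.09e-06). The EμMyc tumors held almost none of it, whereas the Th-MYCN tumors differed 58.6-fold among themselves. Zdbf2, a zinc finger gene, read 0.09 to 0.17 CPM in EμMyc and 170.9 to 502.6 CPM in Th-MYCN tumors (log2 fold change -10.96 ± 0.68, FDR 3.74e-83, quasi-likelihood FDR 1.68e-10). Rtl1, which encodes a retrotransposon-derived protein needed in placenta and muscle, had 3 reads over the 4 EμMyc tumors and 7214 over the 4 Th-MYCN tumors. Its pooled level was 1709-fold lower (95% counting interval 584.5 to 8288). Magel2, a MAGE family gene, had 10 reads over the EμMyc tumors against 31.2 to 382.4 CPM in the Th-MYCN tumors (log2 fold change -10.09 ± 0.90, FDR 5.68e-17, quasi-likelihood FDR 1.46e-06). These 5 genes were thus at or close to the detection limit in lymphoma. Intervals and limits from reads cover counting error only.

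Some domains were lower as a whole and others in part. All 5 tested genes of the Dlk1-Dio3 domain were lower in EμMyc than in Th-MYCN tumors, with log2 fold changes from -10.54 to -6.93, as were both tested genes of the Peg3 domain and both of the Peg10-Sgce domain. Of these, Rtl1, Mirg, Peg3, Usp29 and Peg10 passed the filter only with the neuroblastomas. In the Kcnq1 domain 2 of 5 tested genes were lower, in the Mest domain 1 of 2 and in the Igf2-H19 domain 1 of 2. Meg3, a noncoding RNA with growth-limiting activity, averaged 8.72 ± 4.93 CPM (SD, n = 4) in the EμMyc lymphomas, whereas the 4 Th-MYCN neuroblastomas averaged 4178 ± 495.7 CPM (SD). Of the Snrpn domain 4 of 6 genes were lower: Snrpn (0 reads in all 7 lymphomas, at least 49.3-fold lower), Ndn, Magel2 and Mkrn3. Peg12 and Ube3a of that domain were not called. Snrpn, Magel2 and Mkrn3, like Plagl1 below, passed the filter only with the neuroblastomas, so their falls are descriptions. Snrpn may be undercounted in all tumors where it overlaps Snurf. Of the domains with a single gene Igf2r was not called (-0.70 ± 0.30), and others were lower, with Nnat at -8.86 ± 0.38, Plagl1 at -8.17 ± 0.62, Peg13 at -3.47 ± 0.38, Gnas at -2.48 ± 0.23 and Impact at -1.18 ± 0.42 on the log2 scale. Gnas, the stimulatory G protein alpha subunit, kept a mean of 1059 ± 314 CPM (SD, n = 4) in EμMyc tumors and had the next highest level there per kilobase of exon, 94.7 CPM per kb, after 106.1 CPM per kb for Nap1l4.

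The 8 tested genes that were not called in this comparison were Igf2, Igf2r, Nap1l4, Cd81, Tssc4, Copg2, Peg12 and Ube3a. Several of them serve all cells: Nap1l4 is a nucleosome assembly protein, Copg2 a coat protein of transport vesicles, Tssc4 a spliceosome assembly factor and Ube3a a ubiquitin ligase. Nap1l4 read 298.5 to 385.9 CPM in EμMyc and 363.7 to 413.9 CPM in Th-MYCN tumors. By textbook allele, 16 of 18 tested paternally expressed genes were lower in EμMyc tumors (median log2 fold change -7.76) and 6 of 12 maternally expressed genes (median -1.33). The lower maternal genes were H19, Cdkn1c, Ascl2, Meg3, Rian and Mirg. Of all genes tested, 28.5% were called lower. The 11 genes that passed the filter only with the neuroblastomas were all called lower, and all but Ascl2 and Mirg are paternally expressed. The filter thus adds to this split by allele, which is a description and was not tested.

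**Figure D2:**
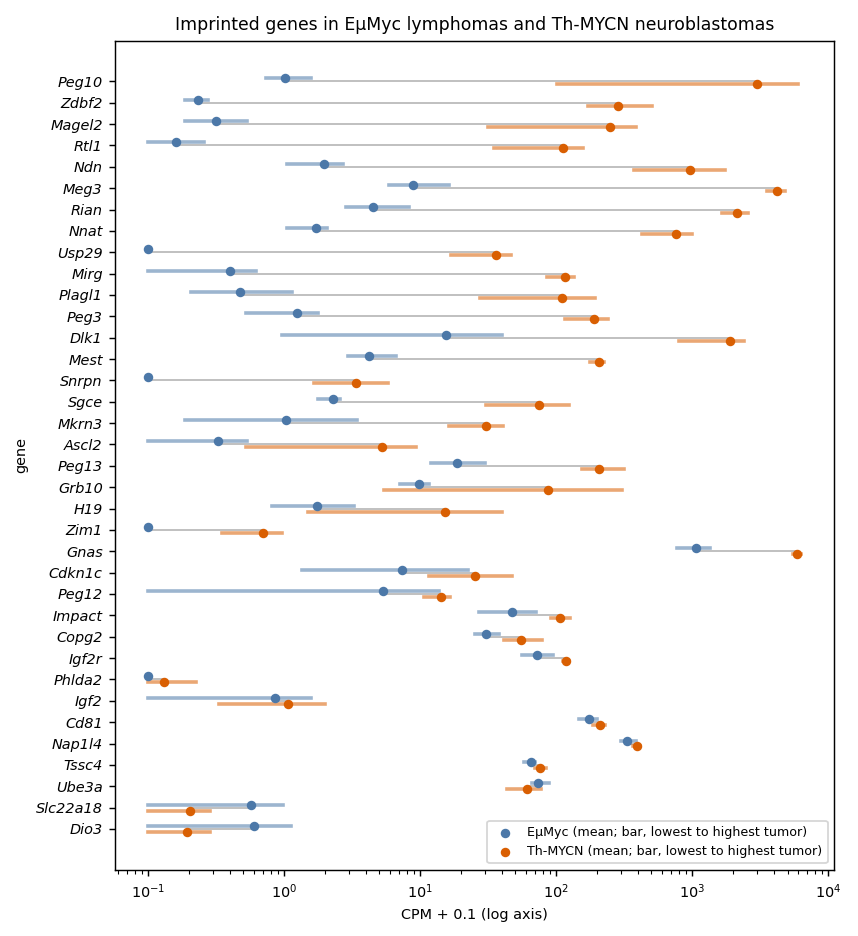
Mean CPM + 0.1 (log axis) of the 36 imprinted genes in 4 EμMyc lymphomas (blue) and 4 Th-MYCN neuroblastomas (orange), with bars from the lowest to the highest tumor. Genes are ordered by the ratio of the means. From Peg10 at the top down to Mkrn3 the bars do not overlap, and toward the bottom they meet.

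Between the tumors lacking Casp2 the picture was close to the same. In EμMyc/Casp2-/- against Th-MYCN/Casp2-/- tumors 22 genes were lower and 1 was higher, where 27.6% and 20.5% of all genes were called, and the quasi-likelihood test gave 22 and 1 as well, where it called 26.6% and 19.7% of all genes. Unadjusted p was under 0.05 for 25 of the 32 genes and for 63.3% of all genes. Values did not overlap for 22 lower genes and for 1 higher gene, Igf2, as was so for 31.2% and 23.6% of all genes. Igf2 was not called and passed the filter only with the lymphomas. It had 6, 14 and 7 reads in the EμMyc/Casp2-/- tumors against 3, 2, 0 and 7, close to the detection limit. The call of a higher level was for another gene. The 1 higher gene was H19 (log2 fold change 7.35 ± 1.30, FDR 1.39e-05, quasi-likelihood FDR 0.0012), whose groups overlapped. Peg12 was lower here (-4.99 ± 1.03, FDR 1.6e-04, quasi-likelihood FDR 0.0027), and Ascl2 and Grb10 were not called. This comparison shares no tumor with the former, but it shares the filter and the dispersion estimates and is no separate check. Of the 11 genes that passed the filter only with the neuroblastomas, all but Ascl2 were called lower here. They were tested because they were high there, so these counts are descriptions as well. Each comparison also shares its tumors with the genotype comparisons below.

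The other 4 imprinted genes were not tested because they had too few reads anywhere. Phlda2, which limits placental growth, had at most 2 reads in a tumor, the transporter gene Slc22a18 at most 10, the deiodinase gene Dio3 at most 12 and the zinc finger gene Zim1 at most 15. Zim1 and Phlda2 had 0 reads in all 7 lymphomas.

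Loss of Casp2 in neuroblastoma went with lower levels of a few imprinted genes by the likelihood ratio test and with none by the quasi-likelihood test. Compared with Th-MYCN tumors, Rtl1, Ascl2, Grb10 and Zdbf2 were lower in neuroblastomas lacking Casp2 and 0 genes were higher, 12.5% of the 32 tested genes where 0.625% of all genes were called lower and 0.188% higher. The quasi-likelihood test called 0 of the 32, where it called 0.0269% of all genes lower and 0.00672% higher, and DESeq2 called Rtl1 and Ascl2. Unadjusted p was under 0.05 for 10 of 32 genes, and for 7.78% of all genes. The median log2 fold change was -0.27 over the 32 genes and -0.0024 over all genes. Summed endothelial markers also differed, at 32.8 to 57.4 CPM in Th-MYCN/Casp2-/- and 68.2 to 110.1 CPM in Th-MYCN tumors, with 2 of 7 (Pecam1 and Kdr) called lower and none at 0 in a group, as did adipose markers, at 20.2 to 73.7 and 91.3 to 241.1 CPM, with 0 of 6 called. Neuroblast markers summed to 3483 to 4572 CPM in Th-MYCN/Casp2-/- and 4688 to 6147 CPM in Th-MYCN tumors, with 0 of 10 called. The 4 chromaffin markers summed to 244.4 to 381.1 CPM in Th-MYCN/Casp2-/- and 339.9 to 477.5 CPM in Th-MYCN tumors. Of these only Slc18a1 was called, higher in tumors lacking Casp2 (1.71 ± 0.38, FDR 0.0039, quasi-likelihood FDR 0.174). Chga lay lower there, at 157.6 to 288.3 against 311.1 to 456.2 CPM. Their part in the imprinted gene values was not tested.

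Rtl1 gave the difference that held up most often. It read 34.6, 113.1, 155.8 and 147.7 CPM in the Th-MYCN tumors MYCN175, MYCN235, MYCN332 and MYCN391, and 30.4, 28.8, 26.0 and 21.6 CPM in the Th-MYCN/Casp2-/- tumors MYCNC2ko118, MYCNC2ko144, MYCNC2ko176 and MYCNC2ko180. The groups did not overlap, as was so for 3.68% of all genes in this direction, but MYCN175 lay close to the tumors lacking Casp2. Rtl1 was 4.22-fold lower (log2 fold change -2.08 ± 0.42, FDR 0.0012, quasi-likelihood FDR 0.130). It stayed called after leaving out each neuroblastoma in turn, with log2 fold changes from -2.37 to -1.88. MYCN175 was also the Th-MYCN tumor with the latest onset, 21 weeks against 10 to 15 weeks in the other 3, and with onset as a covariate among neuroblastomas Rtl1 was lower by a log2 fold change of -1.65 ± 0.37 (FDR 0.0064). Without MYCN175 and MYCNC2ko118, the tumors with muscle markers, it was -2.44 ± 0.31 (FDR 8.71e-11). These were the lowest Th-MYCN and the highest Th-MYCN/Casp2-/- tumor for Rtl1. Leaving them out widens the gap by itself, so this fit is no check of the difference.

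The other genes of the Dlk1-Dio3 domain lay lower in tumors lacking Casp2 and did not pass the test. Dlk1, a Notch-like membrane protein of immature neuroendocrine cells, read 791.8, 2147, 2191 and 2404 CPM in Th-MYCN and 807.1, 407.7, 614.5 and 81.3 CPM in Th-MYCN/Casp2-/- tumors. Its log2 fold change was -1.98 ± 0.80 (FDR 0.406), and the groups overlapped only through MYCN175, which read just below MYCNC2ko118. Meg3 read 3552, 4242, 4761 and 4156 CPM against 3707, 3168, 2891 and 2381 CPM (log2 fold change -0.46 ± 0.32, FDR 0.912), Rian 1636 to 2552 against 831.8 to 1671 CPM (-0.64 ± 0.36, FDR 0.749), and Mirg 85.9 to 135.4 against 67.7 to 96.9 CPM (-0.51 ± 0.26, FDR 0.645). Thus the values for all 5 genes leaned the same way, and those of the paternally expressed Dlk1 and Rtl1 were further apart between the genotypes than those of the maternal noncoding RNAs. Whether that difference in size exceeds the error was not tested.

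**Figure D3:**
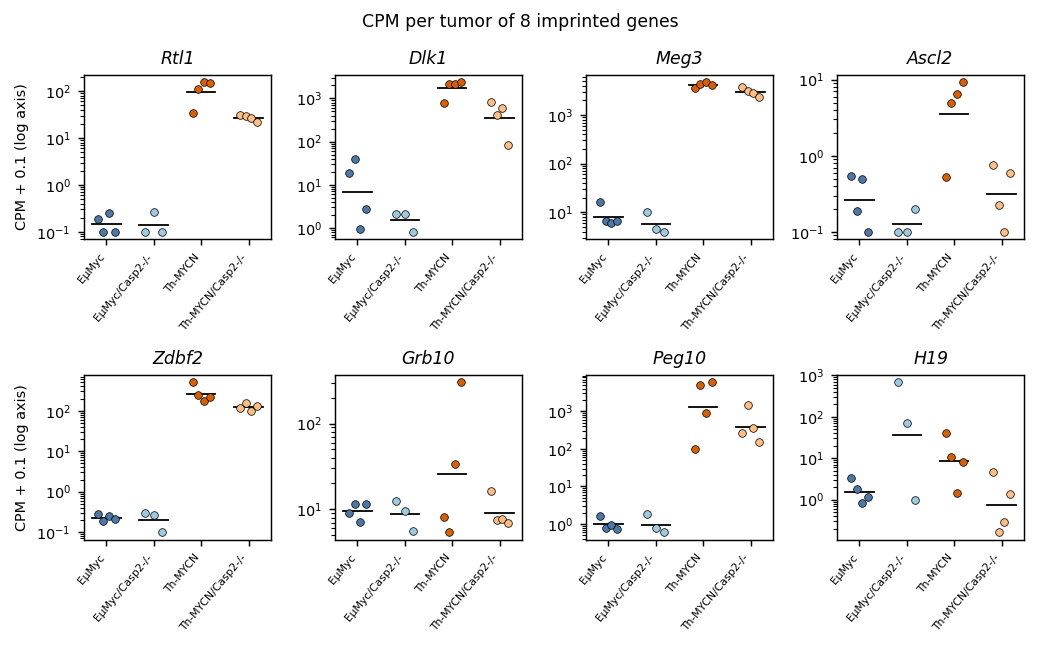
CPM + 0.1 per tumor (log axis) for 8 imprinted genes in the 4 groups, with 1 point per tumor and a line at the geometric mean. In Rtl1, Dlk1 and Ascl2 a single Th-MYCN tumor, MYCN175, lies with the Th-MYCN/Casp2-/- tumors, and in Grb10 a single Th-MYCN tumor lies far above all others.

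Across the 8 neuroblastomas the genes of this domain varied together. Of 11 pairs of neighbors examined in the neuroblastomas or the lymphomas, 6 had an adjusted p under 0.05 by exact two-sided permutation. Dlk1 and Meg3 gave Pearson r = 0.94 (exact permutation p = 0.00087, adjusted 0.0023) and Spearman rho = 0.90 (exact p = 0.0046, adjusted 0.010), and r = 0.91 without the 2 tumors farthest from the median of Dlk1. Meg3 and Rian gave r = 0.93 (exact p = 0.00097, adjusted 0.0023) with rho = 0.90 (exact p = 0.0046, adjusted 0.010) and r = 0.89 without 2 tumors. Meg3 and Mirg gave r = 0.82 (exact p = 0.013, adjusted 0.023) with rho = 0.76 (exact p = 0.037, adjusted 0.067) and r = 0.66 without 2 tumors. Since tumors of 2 genotypes are pooled, the same was computed on deviations from the group means. Deviations within a group are not independent and were permuted across genotypes, so p on deviations is approximate. Dlk1 with Meg3 (r = 0.87, permutation adjusted p = 0.019) and Meg3 with Rian (r = 0.84, adjusted p = 0.025) stayed under 0.05. Meg3 with Mirg (r = 0.58, permutation adjusted p = 0.202) did not. Dlk1 with Rtl1 was also among the 6 pairs that passed when pooled, but the tumors fell into a low set of 5 and a high set of 3. On deviations from the group means the pair did not pass (r = 0.60, permutation adjusted p = 0.202).

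**Figure D4:**
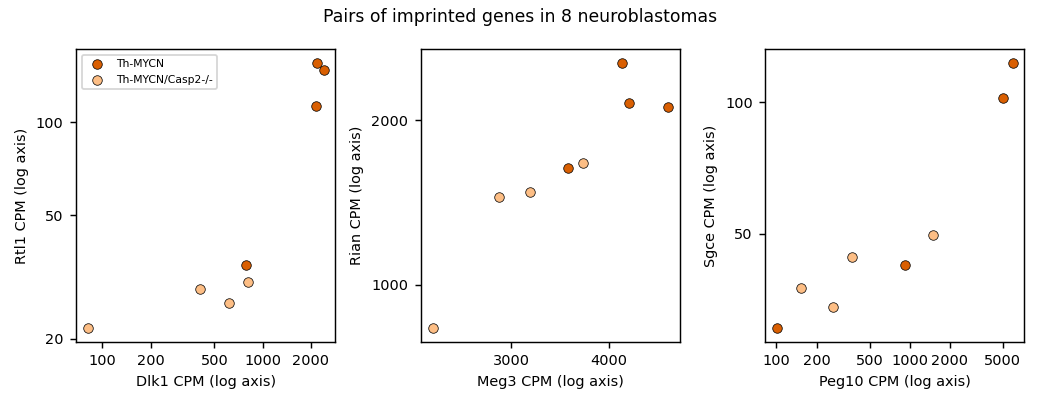
CPM of pairs of neighboring imprinted genes (both axes log) in the 4 Th-MYCN (dark) and 4 Th-MYCN/Casp2-/- (light) neuroblastomas, 1 point per tumor. Dlk1 and Rtl1 fall into 3 high Th-MYCN tumors and 5 lower tumors, whereas Peg10 and Sgce are high together in 2 Th-MYCN tumors.

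Ascl2, a basic helix-loop-helix factor of trophoblast and stem cells in the Kcnq1 domain, was low throughout. It read 0.43, 4.79, 6.29 and 9.20 CPM in the Th-MYCN tumors and 0.65, 0.13, 0 and 0.49 CPM in the Th-MYCN/Casp2-/- tumors. The other 3 Th-MYCN tumors stood above all tumors lacking Casp2, and MYCN175 lay within the range of the tumors lacking Casp2. The log2 fold change was -3.98 ± 0.98 (FDR 0.031, quasi-likelihood FDR 0.238). Ascl2 passed the low-count filter only through these 3 Th-MYCN tumors, so that it was tested because it was high in that group, and the call is given as a description. With onset as a covariate it was -3.07 ± 0.80 (FDR 0.0094). The call was lost after leaving out any 1 of the Th-MYCN/Casp2-/- tumors (FDR up to 0.181). Of its neighbors on chromosome 7, Nap1l4, Cd81, Tssc4 and Cdkn1c had log2 fold changes from -0.11 to 0.25 and were not called. Others lay lower and were not called either: H19 (-3.29 ± 1.20), Igf2 (-2.03 ± 1.01) and Th. Th read 313.5, 1075, 1175 and 1447 CPM in the Th-MYCN tumors and 227.4, 135.3, 75.9 and 246.0 CPM in the Th-MYCN/Casp2-/- tumors. The study reported that Ascl2, Igf2 and H19, adjacent to Th, were somewhat decreased. Cdkn1c, the cell cycle inhibitor p57, read 47.2, 11.5, 24.1 and 17.2 CPM in Th-MYCN and 22.3, 13.9, 36.6 and 46.2 CPM in Th-MYCN/Casp2-/- tumors, and the groups overlapped throughout (log2 fold change 0.25 ± 0.77, FDR 1).

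Grb10, an adaptor that dampens insulin receptor signaling, was called because of 1 tumor. It read 8.00, 5.30, 33.5 and 302.5 CPM in the Th-MYCN tumors and 16.4, 7.32, 7.62 and 6.74 CPM in the Th-MYCN/Casp2-/- tumors. MYCN391 alone stood far above all other tumors. The log2 fold change was -3.19 ± 0.83 (FDR 0.049, quasi-likelihood FDR 0.343), and without MYCN391 it was -0.71 (FDR 1). The call was also lost without any 1 of the Th-MYCN/Casp2-/- tumors. Zdbf2 read 502.6, 247.4, 170.9 and 215.3 CPM in the Th-MYCN tumors and 116.5, 155.4, 97.5 and 130.1 CPM in the Th-MYCN/Casp2-/- tumors. Here the groups did not overlap, and MYCN175 was the highest tumor rather than the lowest. The log2 fold change was -1.19 ± 0.33 (FDR 0.048, quasi-likelihood FDR 0.224) and became -0.75 without MYCN175 (FDR 0.116). The call was kept in 1 of 8 fits that left out 1 neuroblastoma, the fit without MYCN332, and the log2 fold change was -0.73 ± 0.29 without both tumors with muscle markers (FDR 0.386).

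Peg10 and Sgce, which start next to each other and run in opposite directions, shared 1 pattern of single tumors. Peg10 read 101.2, 4992, 918.0 and 5929 CPM in the Th-MYCN tumors and 267.0, 1503, 368.2 and 152.3 CPM in the Th-MYCN/Casp2-/- tumors, and Sgce, which encodes epsilon sarcoglycan, read 30.4, 102.4, 42.4 and 123.1 CPM against 34.1, 49.6, 44.4 and 37.5 CPM. MYCN235 and MYCN391 were highest in both genes. Their r was 0.93 (exact permutation p = 0.00042, adjusted 0.0023) with rho = 0.95 (exact p = 0.0011, adjusted 0.0063), and r = 0.87 without 2 tumors. On deviations from group means r was 0.91 (approximate permutation adjusted p = 0.0098). The genotype difference was not called for Peg10 (log2 fold change -2.38 ± 0.84, FDR 0.248) or Sgce (-0.85 ± 0.41, FDR 0.600). With sex as a covariate among neuroblastomas the log2 fold changes moved to -0.80 ± 0.94 for Peg10 (FDR 0.932) and -0.36 ± 0.34 for Sgce (FDR 0.862). Asb4, a neighbor in the same cluster that was looked at after its values were seen, read 39.1 and 69.1 CPM in MYCN235 and MYCN391, 16.8 CPM in MYCNC2ko144, the tumor with the next highest Peg10, and at most 1.097 CPM in the other 5 neuroblastomas.

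H19 and Igf2 did not pass the test in neuroblastomas. H19 read 39.9, 10.7, 1.39 and 7.97 CPM in the Th-MYCN tumors and 4.54, 0.06, 0.19 and 1.30 CPM in the Th-MYCN/Casp2-/- tumors (log2 fold change -3.29 ± 1.20, FDR 0.334). In each genotype the tumor with the most H19, MYCN175 and MYCNC2ko118, was the tumor with the most skeletal muscle marker reads, all 7 markers of that list had reads there, and the part of muscle in the H19 level was not tested. Igf2 was close to the detection limit, at 1.89, 1.02, 0.23 and 0.74 CPM against 0.22, 0.13, 0 and 0.57 CPM (log2 fold change -2.03 ± 1.01, FDR 0.607). No tumor of either type therefore had more than 1.89 CPM of the growth factor, while Igf2r, its clearing receptor, read 40.4 to 132.3 CPM in all 15 tumors.

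In the opposite direction stood Nnat, a small membrane protein of developing neurons, at 991.6, 616.4, 991.7 and 428.5 CPM in the Th-MYCN tumors and 1606, 718.3, 2119 and 1417 CPM in the Th-MYCN/Casp2-/- tumors. Its log2 fold change was 0.95 ± 0.34 (FDR 0.226), and the groups overlapped through MYCNC2ko144. Peg12 did not overlap between the groups, at 15.8, 13.6, 10.6 and 16.5 CPM against 21.0, 39.3, 28.8 and 16.7 CPM, as was so for 2.94% of all genes in this direction, and was not called (0.91 ± 0.91, FDR 1). Mkrn3, a RING finger gene that restrains puberty, read 16.1, 31.4, 40.5 and 32.8 CPM against 42.8, 62.9, 41.2 and 36.4 CPM (0.60 ± 0.74, FDR 1). None of the 3 passed the test. Magel2 read 31.2, 306.4, 382.4 and 273.6 CPM against 155.0, 664.5, 85.1 and 179.9 CPM with no call (0.13 ± 0.77, FDR 1), and Usp29 reached 22.4 to 36.6 CPM in the tumors lacking Casp2, within the Th-MYCN range given above. The 11 tested members not given tumor by tumor and outside the Kcnq1 and Dlk1-Dio3 domains had log2 fold changes from -0.43 for Mest to 0.50 for Peg13, none of them called.

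In the lymphomas lacking Casp2 the single call was H19. In EμMyc/Casp2-/- against EμMyc tumors 1 of 32 genes was higher and 0 were lower, where 1.14% and 0.302% of all genes were called. The quasi-likelihood test called 0 of 32, where it called 0.0941% of all genes higher and 0.047% lower, and DESeq2 called H19. Unadjusted p was under 0.05 for 5 of 32 genes, and for 9.89% of all genes. The median log2 fold change was -0.06 over the 32 genes and -0.03 over all genes.

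H19 read 3.15, 1.71, 0.71 and 1.06 CPM in the EμMyc tumors EuMyc614, EuMyc743b, EuMyc829 and EuMyc835, and 678.4, 71.7 and 0.91 CPM in the EμMyc/Casp2-/- tumors EuMycC2ko215, EuMycC2ko239 and EuMycC2ko245. Only 2 of 3 tumors lacking Casp2 were high, and EuMycC2ko245 lay within the EμMyc range, so the groups overlapped. The log2 fold change was 7.23 ± 1.30 (FDR 0.0017, quasi-likelihood FDR 0.127). Without EuMycC2ko215 it was 4.45 (FDR 0.168), and the call was kept in the other 6 of 7 fits that left out 1 tumor. EuMycC2ko215 and EuMycC2ko239 were also the lymphomas with the highest summed T cell markers, 1475 and 116.7 CPM against 8.40 to 67.0 CPM in the other 5, and 5 of the 7 T cell markers, Cd3d, Cd4, Cd8a, Cd8b1 and Lat, were called higher in EμMyc/Casp2-/- tumors (quasi-likelihood FDR 0.140 to 0.262). None of the 7 was at 0 in every tumor of a group, and the part of T cells in the H19 level was not tested. Igf2, which shares its enhancers with H19, read 1.49, 1.45, 0 and 0.11 CPM in EμMyc and 1.17, 1.17 and 0.71 CPM in EμMyc/Casp2-/- tumors and did not follow H19.

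**Figure D5:**
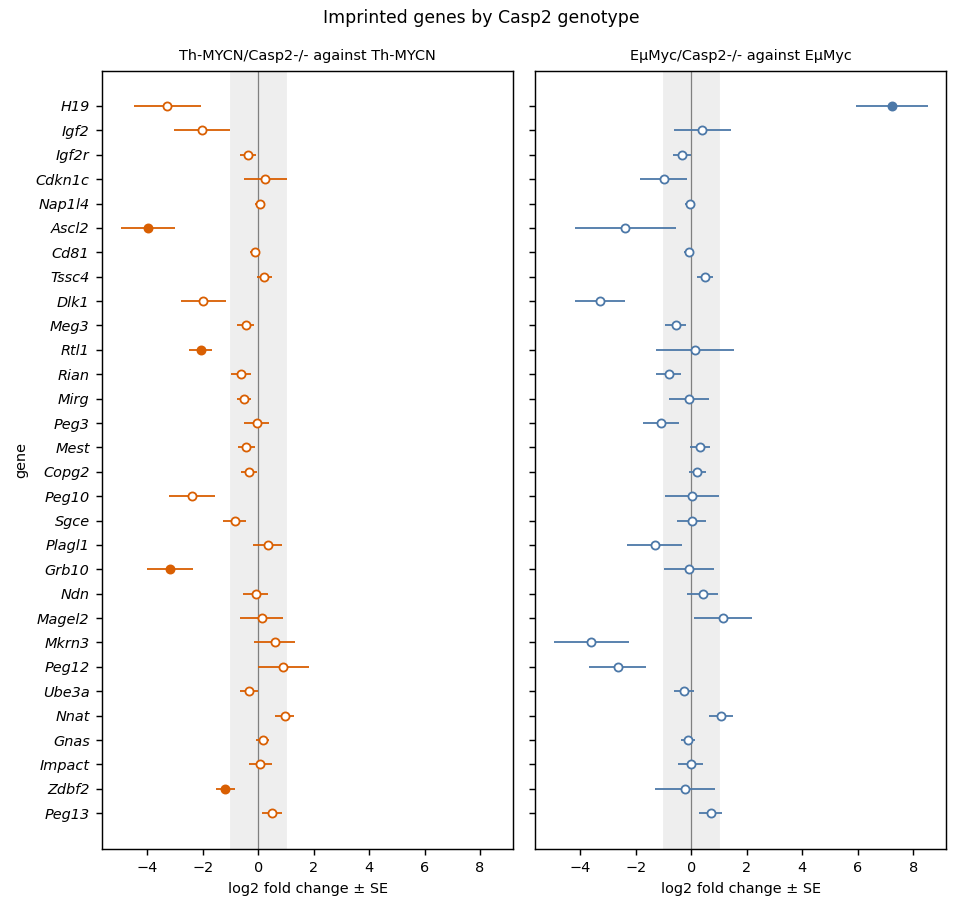
Log2 fold change with its SE for 30 tested imprinted genes with loss of Casp2 in neuroblastoma (left) and in lymphoma (right), on 1 shared axis. Filled points were called by the likelihood ratio test, the grey band spans changes under 2-fold, and Usp29 and Snrpn are left out because they had 0 reads in the lymphomas and no SE. The calls are Rtl1, Ascl2, Grb10 and Zdbf2 on the left and H19 on the right.

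The other genes with an unadjusted p under 0.05 in lymphoma were low and uneven. Dlk1 read 18.6, 39.6, 0.87 and 2.65 CPM in the EμMyc tumors and 1.95, 2.0 and 0.71 CPM in the EμMyc/Casp2-/- tumors. It was high in 2 of 4 EμMyc tumors, and the log2 fold change was -3.31 ± 0.90 (FDR 0.060, quasi-likelihood FDR 0.356). Mkrn3 read 0.26, 0.09, 3.31 and 0.11 CPM against 0, 0.17 and 0 CPM, and so rested on EuMyc829. Its log2 fold change was -3.60 ± 1.35 (FDR 0.091, quasi-likelihood FDR 0.442). Only 2 reads lay in the 3 EμMyc/Casp2-/- tumors, a pooled level 14.03-fold lower (95% counting interval 3.67 to 119.2). That interval leaves out differences between tumors, and 42 of the 47 EμMyc reads were from EuMyc829. Peg12 read 7.00, 0.26, 13.7 and 0 CPM against 1.37, 0.75 and 0.40 CPM (-2.66 ± 1.03, FDR 0.305), with EuMyc614 and EuMyc829 above the rest. Nnat read 1.84, 1.97, 1.65 and 0.96 CPM against 3.71, 4.26 and 2.32 CPM, and its groups did not overlap, as was so for 1.75% of all genes in this direction, and 0 genes were lower without overlap, against 1.96% of all genes (1.08 ± 0.44, FDR 0.249). Meg3 stood at 16.1, 6.59, 5.83 and 6.37 CPM against 9.96, 4.34 and 3.84 CPM (-0.57 ± 0.37, FDR 0.705), and Rian varied with it even at these low levels (r = 0.96, exact permutation p = 0.0006, adjusted 0.0023; rho = 1, exact p = 0.0004, adjusted 0.0044; r = 0.94 without 2 tumors; r = 0.95 on deviations from group means). Cdkn1c was 22.5 CPM in EuMyc614 and 0.83 to 6.25 CPM in the other 6 lymphomas. Rtl1, Ascl2, Zdbf2, Peg10, Sgce, Magel2 and Grb10, with at most 12.3 CPM in any lymphoma, were not called.

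The genotype effects of the tumor types were compared in an interaction term. H19 alone was called: its change with loss of Casp2 in lymphoma exceeded that in neuroblastoma by 10.52 ± 1.77 on the log2 scale (FDR 0.00028, quasi-likelihood FDR 0.135), where 0.726% of all genes were called in this direction and 0.188% in the other. The quasi-likelihood test called 0 of the 32 genes and 0.0336% and 0.0202% of all genes, and DESeq2 called H19. The call was kept in each of 15 fits that left out 1 tumor. Unadjusted p was under 0.05 for 4 of 32 genes, H19, Mkrn3, Peg12 and Grb10, and for 8.96% of all genes. That Rtl1, Ascl2, Grb10 and Zdbf2 were called in neuroblastoma and not in lymphoma does not show a difference between the tumor types.

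Antisense transcripts run across several of these genes, and the strand columns could not separate them. The second strand column held 48.8% to 49.3% of the reads of both strand columns in every tumor, which is the even split of a library that does not mark strand. Of 30 imprinted genes with at least 1000 reads, 29 had 45% to 55% of their reads in that column. The exception was Snrpn, at 30.2%. Snrpn overlaps Snurf on its own strand, and Snurf had 0 reads in every tumor. Reads that these genes share may be missing from Snrpn in all 3 columns. The column that ignores strand showed where overlapping features make reads ambiguous: it kept 48.4% of the reads that the strand columns together gave to Rtl1, 74.0% for Usp29, 78.2% for Ube3a, 80.8% for Peg3 and at least 95.2% for the other genes. The level of Rtl1 may therefore include reads of transcripts from the opposite strand, where the miRNA hairpins shown above lie. On the column that ignores strand and on the first strand column Rtl1 was still called lower in Th-MYCN/Casp2-/- tumors, and it was the only imprinted gene called on either.

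In all 4 groups most of the imprinted genes varied more from tumor to tumor than the median gene. Above the median SD of all genes tested lay 24 of the 32 in Th-MYCN and 20 in Th-MYCN/Casp2-/- tumors. In EμMyc tumors 21 lay above it, and in EμMyc/Casp2-/- tumors 22. The median SD of log2 CPM (prior count 2) over the 32 genes was 0.58 in Th-MYCN and 0.53 in Th-MYCN/Casp2-/- tumors, against 0.25 and 0.34 over all genes tested. Of the 32 genes 12 lay above the 90th percentile of all genes in Th-MYCN tumors and 9 in Th-MYCN/Casp2-/- tumors. Peg10 (SD 2.73), Grb10 (2.62), H19 (1.93), Ascl2 (1.79) and Magel2 (1.68) varied most among Th-MYCN tumors, and H19 (2.001), Dlk1 (1.48) and Peg10 (1.41) most among Th-MYCN/Casp2-/- tumors. In contrast Nap1l4, Gnas and Meg3 had SDs of 0.08, 0.10 and 0.17 among Th-MYCN tumors. In the lymphomas the median SD was 0.53 and 0.64 against 0.40 and 0.52 over all genes, with 5 and 3 genes above the 90th percentile, H19 in EμMyc/Casp2-/- tumors (4.73) being the highest of all. MYCN175 was the lowest Th-MYCN tumor for 20 of the 32 genes, among them all 5 of the Dlk1-Dio3 domain, and the highest for 7, which were Cdkn1c, Copg2, H19, Igf2, Peg13, Tssc4 and Zdbf2.

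Start regions were searched for short motifs because many of the genes moved together between tissues. The windows shown were each read from RefSeq on GRCm38.p6: the stretch between the starts of Peg3 and Usp29, which run apart from 1 shared region, and the 250 bases before the starts of Dlk1, of Meg3 and of the long transcript of Zdbf2. Capitals mark the hexamer TGCCGC or its complement GCGGCA, the core bound by ZFP57, a factor that keeps imprints when the hexamer is methylated.

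Peg3-Usp29, chr7:6730432-6730577 (+): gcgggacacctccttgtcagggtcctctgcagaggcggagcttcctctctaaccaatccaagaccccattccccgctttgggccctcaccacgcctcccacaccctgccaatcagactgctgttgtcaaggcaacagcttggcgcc
Dlk1, chr12:109452573-109452822 (+): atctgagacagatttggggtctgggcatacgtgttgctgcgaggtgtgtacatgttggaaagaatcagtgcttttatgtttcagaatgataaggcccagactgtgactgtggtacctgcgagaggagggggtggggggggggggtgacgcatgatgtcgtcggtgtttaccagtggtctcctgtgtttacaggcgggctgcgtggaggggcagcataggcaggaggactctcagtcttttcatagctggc
Meg3, chr12:109540746-109540995 (+): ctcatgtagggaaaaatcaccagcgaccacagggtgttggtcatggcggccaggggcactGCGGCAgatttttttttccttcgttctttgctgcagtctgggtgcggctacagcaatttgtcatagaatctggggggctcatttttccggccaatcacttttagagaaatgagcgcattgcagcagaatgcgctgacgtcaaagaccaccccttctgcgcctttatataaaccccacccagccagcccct
Zdbf2, chr1:63200108-63200357 (+): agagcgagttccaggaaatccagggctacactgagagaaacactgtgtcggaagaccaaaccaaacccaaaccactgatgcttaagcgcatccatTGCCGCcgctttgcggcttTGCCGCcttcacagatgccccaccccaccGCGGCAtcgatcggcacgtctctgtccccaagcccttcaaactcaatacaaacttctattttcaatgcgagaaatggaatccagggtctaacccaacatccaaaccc

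Searched on both strands, TGCCGC lay in 7 of 42 windows of 250 bases before a start of 28 imprinted genes that had an entry (16.7%), against 8.68% of all 32851 windows. The genes were Copg2, Meg3, Mest, Plagl1, Zdbf2 and Zim1, with 3 copies in the window of Zdbf2 and 1 in that of Meg3. The Myc E-box CACGTG, which reads the same on both strands, lay in 2 windows (4.76%), of Igf2r and Plagl1, against 6.02% of all, and the YY1 core AAGATGG in 1 (2.38%), of Ube3a, against 4.49%. None of the 3 motifs lay in the windows shown for Dlk1 and for Peg3 and Usp29. These counts describe letters in windows and were not tested. H19, Rtl1, Cdkn1c, Peg10, Sgce, Nap1l4, Impact and Peg13 had no entry.

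Further imprinted genes gave few genotype calls. Of 38 tested genes of a list of 52 other imprinted genes, Nespas, the antisense RNA of the Gnas locus, was lower in Th-MYCN/Casp2-/- tumors (log2 fold change -2.47 ± 0.63, FDR 0.032, quasi-likelihood FDR 0.257), at 11.1, 55.6, 36.9 and 63.6 CPM in Th-MYCN and 17.4, 4.69, 7.04 and 1.14 CPM in Th-MYCN/Casp2-/- tumors. MYCN175 again was the low Th-MYCN tumor. Ppp1r9a, a neuronal actin-binding protein gene next to the Peg10 cluster, was higher in EμMyc/Casp2-/- tumors (3.75 ± 0.72, FDR 2.0e-04, quasi-likelihood FDR 0.0755), at 7.42, 23.5 and 1.01 CPM against 0.21 to 1.40 CPM. The median log2 fold changes of the list were -0.01 in neuroblastoma and 0.10 in lymphoma. Between tissues 22 of the 38 (57.9%) were lower and 7 (18.4%) higher in EμMyc than in Th-MYCN tumors, beside 28.5% and 18.9% of all genes (median log2 fold change -1.87), with the largest falls in Kcnk9, Zim3 and Th, a potassium channel gene, a zinc finger gene and the catecholamine synthesis gene whose promoter drives the transgene. The largest rises were those of Tspan32 (6.52 ± 0.57), Atp10a (3.80 ± 0.86) and Pon2 (2.25 ± 0.31). Kcnk9 read at most 0.09 CPM and Zim3 0 CPM in the lymphomas. Th exceeded 1 CPM only in EuMyc614 (3.32 CPM) and EuMyc835 (1.38 CPM) among them. These genes passed the filter only with the neuroblastomas. Tspan32, with at most 0.86 CPM in neuroblastomas, passed only with the lymphomas. Their folds and the counts of this list between tissues are therefore descriptions. Zim3 overlaps Usp29 on the opposite strand.

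Among genes that keep or erase imprints, none of 12 tested genes of 15 was called in either genotype comparison by the likelihood ratio or the quasi-likelihood test, with median log2 fold changes of -0.11 in neuroblastoma and -0.07 in lymphoma. In EμMyc against Th-MYCN tumors Tet1, a methylcytosine oxidase gene (-7.56 ± 0.63), Zfp57 (-6.54 ± 0.46) and the de novo methyltransferase gene Dnmt3a (-1.21 ± 0.26) were lower, whereas Dnmt3b (1.58 ± 0.30) and Uhrf1 (1.26 ± 0.25), which guides Dnmt1 to newly copied DNA, were higher. Zfp57 averaged 1.31 CPM in EμMyc and 123.9 CPM in Th-MYCN tumors, and Trim28, the corepressor it recruits, 718.7 and 756.1 CPM. Tet1 exceeded 1 CPM in EuMycC2ko239 (2.42 CPM) alone of the lymphomas. It passed the filter only with the neuroblastomas, so its fold is a description. Of 13 tested Igf signaling partners, Irs1, an insulin receptor substrate gene, was higher in EμMyc/Casp2-/- tumors (3.16 ± 0.70, FDR 0.0031, quasi-likelihood FDR 0.149), at 42.2, 11.8 and 1.21 CPM in EuMycC2ko215, EuMycC2ko239 and EuMycC2ko245 against 1.45 to 2.28 CPM in EμMyc tumors, the same order of tumors as for H19. Between tissues Irs1 (-5.42 ± 0.65), Igfbp5 (-2.51 ± 0.61), Insr (-2.05 ± 0.28) and Igfbp2 (-1.95 ± 0.57) were lower in EμMyc tumors. The RNA-binding protein genes Igf2bp2 (2.57 ± 0.67) and Igf2bp3 (2.05 ± 0.59) were higher there. Igf2bp2 read at most 0.52 CPM in neuroblastomas and at most 1.71 CPM in lymphomas. It passed the filter only with the lymphomas, so its fold is a description.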

How the data were processed

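RNA from frozen tumors was sequenced by the study's authors (poly(A) RNA, single-end reads). Per the labels and the study's methods, the authors checked reads with FastQC, aligned them with STAR to mm10/GRCm38 and deposited raw counts per gene in 3 columns, for either strand, the first strand and the second strand. The STAR version and annotation release are not given in the sources used here. As in the study, the second strand counts were used. Rows that name no gene held 66.4% to 71.8% of that column and were left out of library sizes. Because the library did not mark strand, this column holds about an equal share of the reads with the other strand, and overlapping genes on opposite strands cannot be separated.

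The filter kept genes with over 1 CPM in 3 or more tumors. TMM scaling and likelihood ratio tests were done in edgeR 4.0.16 (R 4.3.3) in 1 model with 4 group means over 15 tumors, with Benjamini-Hochberg adjustment over all genes tested, and calls needed FDR under 0.05 and over 2-fold. The quasi-likelihood test of edgeR and DESeq2 1.42.0 were alternatives. SEs come from the negative binomial Fisher information. Pairs were tested by exact permutation in Python with scipy. For deviations from group means the permutation ran across genotypes, and its p is approximate. The scripts were tested on simulated data. The labels give different mice for all tumors, but no pairing, and replicate numbers only name tumors. Sex for a covariate was taken from the study's sample table. Gene positions and lengths are from GENCODE vM21 and sequences from RefSeq, both GRCm38.

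The member genes, the lists and the cell type marker lists were chosen with earlier results of these data known. Values are given tumor by tumor for H19, Igf2, Cdkn1c, Dlk1, Meg3 and Rtl1, for members with an unadjusted p under 0.05 in a genotype comparison or the interaction, and for the 5 largest falls and rises called between tissues (no rise was called). Of the other lists, genes called by genotype and the 3 largest changes each way between tissues are named where called. Asb4 was added after its values were seen. A further EμMyc/Casp2-/- tumor mentioned in the study is not analysed here.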

Additional observations from a re-analysis of the deposited data

Results flagged for a closer look

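Among named members with at least 10 reads in some tumor of a group, 41 groups of 4 tumors were examined for a tumor far from the rest, and chance alone flags about 1 in 20 such groups. Dlk1 stood apart in the Th-MYCN tumor MYCN175, at 791.8 CPM against 2147 to 2404 CPM in the other 3 Th-MYCN tumors. Magel2 stood apart in the same tumor, at 31.2 CPM against 273.6 to 382.4 CPM. Meg3 stood apart in EuMyc614, at 16.1 CPM against 5.83 to 6.59 CPM in the other EμMyc tumors. Grb10 stood apart in MYCNC2ko118, at 16.4 CPM against 6.74 to 7.62 CPM in the other Th-MYCN/Casp2-/- tumors. H19 differed between tumor types in its change with Casp2 genotype by 10.52 on the log2 scale (edgeR likelihood ratio FDR 0.00028, quasi-likelihood FDR 0.135).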

How the results depend on the processing

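The number of imprinted genes called lower in Th-MYCN/Casp2-/- tumors was 4 and depended on the processing: it was 0 by the quasi-likelihood test, 2 by DESeq2 and without a CPM filter, 1 with over 1 CPM required in at least 7 tumors, and 1 on the either-strand and on the first strand column, where Rtl1 was the gene left. Leaving out each neuroblastoma in turn gave 1 to 4, with Rtl1 alone called without MYCN391 or any 1 tumor lacking Casp2, and Rtl1 and Grb10 without MYCN235. The number called higher in EμMyc/Casp2-/- tumors was 1 and became 0 by the quasi-likelihood test, with 0 to 1 after leaving out each lymphoma. The number called lower there was 0, with 0 to 3 after leaving out each lymphoma (Dlk1, Mkrn3 and Peg12 without EuMyc835, Mkrn3 without EuMyc743b or EuMycC2ko239, Dlk1 without EuMyc829); H19 was lost without EuMycC2ko215. For the interaction, 1 gene was called higher and 0 by the quasi-likelihood test, and leaving out each tumor gave 0 to 2 called lower (Mkrn3 without EuMyc743b, Mkrn3 and Peg12 without EuMyc835). The number higher in EμMyc/Casp2-/- against Th-MYCN/Casp2-/- tumors was 1, with 1 to 2 after leaving out each tumor (Igf2 added without MYCNC2ko180). The number lower in EμMyc against Th-MYCN tumors was 24, with 21 to 24. The causes were not tested. Grb10 was called in 1 and Zdbf2 in 4 of 11 other settings. Onset as a covariate kept Rtl1, Ascl2 and Zdbf2 called and not Grb10 (FDR 0.181), as did sex (Grb10 FDR 0.626). With Ascl2, leaving out MYCN235, MYCN332 or MYCN391 took it under the filter. No direction of a called gene turned under any alternative. No paired analysis was possible because replicate numbers were given in accession order only and pair no tumors. In the lymphomas onset separates the genotypes (13 to 19 against 8 to 12 weeks) and cannot be told apart from Casp2.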
